A study of Mus musculus with 8 samples.

Results

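The genes described here are the matrix metalloproteinases (Mmp), the ADAMTS proteases (Adamts), the ADAMTS-like proteins (Adamtsl) and the tissue inhibitors of metalloproteinases (Timp). They were picked by gene symbol from a table of protein-coding genes, with earlier results of these data known. The symbols matched 51 of the 22053 rows of the table: 23 Mmp, 19 Adamts, 5 Adamtsl and 4 Timp genes. A gene was counted as expressed, and tested, when it reached 1 FPKM (sequenced fragments relative to transcript length and to the library total) in at least 4 of the 8 libraries. By this rule 19 of the 51 were expressed: 8 Mmp, 6 Adamts, 2 Adamtsl and 3 Timp genes.

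The libraries came from wild-type mice at postnatal day 10. Candidate vertebral skeletal stem cells (vSSC) were sorted from the spine (4 libraries, 2 male and 2 female), and long bone skeletal stem cells (lbSSC) were sorted from femur and tibia (4 libraries, 2 male and 2 female). Sorting kept CD200-positive cells from both sites that lacked CD45, CD31, TER119, 6C3, Thy and CD105. The labels call the samples biological replicates and do not give the number of animals behind each. A p-value here therefore reflects only how much these samples vary, which may be technical in part. In both groups replicates 1 and 2 are male and replicates 3 and 4 female.

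Matrix metalloproteinases are zinc enzymes that cut collagens, gelatin and other matrix proteins. They are made as inactive precursors, some are secreted and others sit in the cell membrane. ADAMTS proteases are secreted relatives with thrombospondin repeats that trim procollagens or cut the proteoglycans aggrecan and versican, while ADAMTS-like proteins keep the repeats but lack the protease domain and act in the matrix around fibrillin. The Timp genes encode secreted inhibitors that bind the active site of these enzymes. In the growth plate and in forming bone this set is best known for the removal of cartilage matrix ahead of bone and for the maturation of collagen fibrils.

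FPKM is scaled to transcript length, so levels can be set between genes, and all levels below are FPKM. The summed FPKM of a library ran from 517314 to 571869 in vSSC and from 460302 to 521489 in lbSSC, with 10337 to 10753 genes at 1 FPKM or more, and read depth is unknown. Ribosomal protein genes took 20.8%, 19.1%, 21.1% and 18.0% of the summed FPKM in vSSC replicates 1 to 4, against 18.1%, 17.6%, 15.5% and 15.4% in lbSSC replicates 1 to 4, so that vSSC replicates 1 and 3 stood highest. Of the sorting markers, Cd200 was at 85.1 to 133 FPKM in vSSC and 84.2 to 143 FPKM in lbSSC. Pecam1, Ptprc and Thy1 stayed below 1 FPKM in all 8 libraries, Eng reached 0.839 FPKM in vSSC and 1.17 FPKM in lbSSC, and Enpep reached 0.484 FPKM in vSSC and 1.76 FPKM in lbSSC. A difference is the vSSC mean less the lbSSC mean of log2(FPKM + 1), with its SE from limma, a scale on which changes at low FPKM look smaller than they are. Adjusted p-values (Benjamini-Hochberg) cover all 10729 tested genes, with a call under 0.05. In bulk samples, fewer cells of a type and less RNA per cell cannot be told apart.

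The promoters of the protease genes that lie together on chromosome 9 differed in their letters from those of the genes called lower in vSSC, and a few of each are shown for that reason. The windows are the 250 bases before the gene start in RefSeq (build GRCm38.p6), 249 bases for Adamts2, and they cover no annotated exon. The first 3 belong to the chromosome 9 cluster: Mmp13, a collagenase of hypertrophic cartilage, at chr9:7272264-7272513 on the plus strand, Mmp3 at chr9:7445572-7445821 on the plus strand, and Mmp10 at chr9:7502092-7502341 on the plus strand, the last 2 encoding stromelysins. Capitals mark the AP-1 motif (TGANTCA), the TATA box (TATAAA) and the RUNX motif (AACCACA).

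Mmp13: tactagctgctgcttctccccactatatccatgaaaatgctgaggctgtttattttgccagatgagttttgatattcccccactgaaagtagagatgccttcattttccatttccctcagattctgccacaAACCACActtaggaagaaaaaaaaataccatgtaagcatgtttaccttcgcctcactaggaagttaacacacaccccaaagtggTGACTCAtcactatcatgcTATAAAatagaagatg

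Mmp3: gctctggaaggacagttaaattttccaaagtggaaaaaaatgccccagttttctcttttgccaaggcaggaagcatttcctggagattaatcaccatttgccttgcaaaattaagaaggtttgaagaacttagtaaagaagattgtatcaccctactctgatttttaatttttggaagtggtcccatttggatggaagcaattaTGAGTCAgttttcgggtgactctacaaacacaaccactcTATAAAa

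Mmp10: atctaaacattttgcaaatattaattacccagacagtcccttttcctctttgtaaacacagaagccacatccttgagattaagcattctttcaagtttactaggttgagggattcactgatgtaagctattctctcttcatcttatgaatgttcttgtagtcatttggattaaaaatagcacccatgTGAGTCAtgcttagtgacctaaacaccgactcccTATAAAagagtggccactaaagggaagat

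The other 3 belong to genes that were lower in vSSC: the membrane protease gene Mmp14 at chr14:54431348-54431597 on the plus strand, the procollagen protease gene Adamts2 at chr11:50601835-50602083 on the plus strand, and Adamtsl4, which encodes an ADAMTS-like protein, at chr3:95687918-95688167 on the minus strand. Capitals mark the GC box (GGGCGG, or CCGCCC on the other strand).

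Mmp14: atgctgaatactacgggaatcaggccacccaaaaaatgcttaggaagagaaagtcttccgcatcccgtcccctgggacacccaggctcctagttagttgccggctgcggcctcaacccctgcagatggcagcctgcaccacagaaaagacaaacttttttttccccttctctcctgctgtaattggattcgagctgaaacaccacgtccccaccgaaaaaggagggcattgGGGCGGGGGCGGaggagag

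Adamts2: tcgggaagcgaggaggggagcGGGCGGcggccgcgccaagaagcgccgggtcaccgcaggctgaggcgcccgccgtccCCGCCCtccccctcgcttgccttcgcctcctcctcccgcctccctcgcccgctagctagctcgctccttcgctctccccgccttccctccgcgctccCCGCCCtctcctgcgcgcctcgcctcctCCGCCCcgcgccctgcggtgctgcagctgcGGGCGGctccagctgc

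Adamtsl4: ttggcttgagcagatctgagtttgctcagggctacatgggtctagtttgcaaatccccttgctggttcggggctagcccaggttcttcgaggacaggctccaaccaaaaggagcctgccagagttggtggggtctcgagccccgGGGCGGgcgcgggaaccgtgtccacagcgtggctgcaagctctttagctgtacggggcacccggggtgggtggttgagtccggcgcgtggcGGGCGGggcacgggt

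Each motif was searched on both strands in the 250 bases before the start, for the 36 members with a window in the RefSeq table and for all 32851 windows of that table. The AP-1 motif stood in 8 of the 10 genes of the chromosome 9 cluster and in 6.75% of all windows. It stood in no member outside the cluster, and so in none of the 6 genes with a window that were called lower in vSSC. The TATA box stood in 7 of the 10 cluster genes, in none of the 6 called genes and in 12.4% of all windows, and 7 cluster genes held both motifs, against 1.21% of all windows. The RUNX motif stood in Mmp13, Mmp27 and Mmp7, and in 4.4% of all windows. The GC box stood in none of the 10 cluster genes, in all 6 called genes and in 32.7% of all windows. It also stood in 11 of the 15 expressed members with a window and in 20 of all 36 members. Members outside the cluster thus often held it, whether called or not. Median GC content was 40.2% over the windows of the cluster, 66.8% over those of the called genes and 52.4% over all windows. A match describes the letters of the window and is not a measured binding site.

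Across the family, no expressed gene passed the test as higher in vSSC and 7 of 19 passed as lower: Adamtsl4, Adamts2, Adamts9, Timp3, Mmp9, Mmp14 and Timp2. Among all 10729 tested genes, 14.3% passed as higher and 9.17% as lower. In 6 of the 19 expressed members every vSSC library was below every lbSSC library, against 9.99% of all tested genes. These 6 were the called genes other than Mmp9, and a call and such a separation rest on the same values. No expressed member had every vSSC library above every lbSSC library, against 15.8% of all tested genes. The other 12 expressed members did not pass, 7 with a higher and 5 with a lower estimate in vSSC. Of the 19, 12 had an unadjusted p under 0.05, as did 4119 of the 10729 tested genes. The median difference was -0.33 over the 19 members and 0.08 over all tested genes. With the libraries rescaled to one sum the median of all tested genes moved to -0.04 and the share of calls that were higher in vSSC was 42.4%, against 60.9% as deposited, while 8 members passed as lower and 0 as higher.

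**Figure D1:**
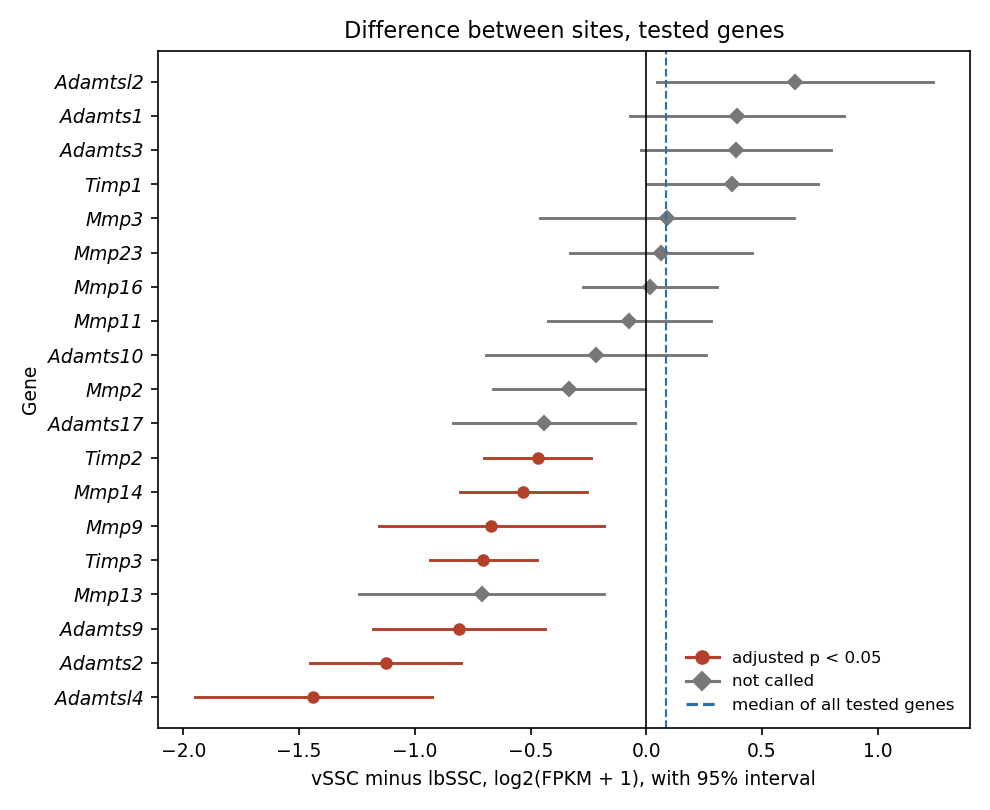
Difference of each of the 19 expressed genes between vSSC and lbSSC on the log2(FPKM + 1) scale (x axis), with its 95% interval from limma. Red circles mark the 7 genes called at an adjusted p under 0.05, all left of 0, grey diamonds the 12 not called, and the dashed line the median of all tested genes at 0.08.

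Summed over the 23 Mmp genes, the level was 396, 459, 365 and 464 FPKM in vSSC replicates 1 to 4, against 534, 546, 566 and 562 FPKM in lbSSC replicates 1 to 4. All 4 vSSC sums lay below all 4 lbSSC sums, also when taken as a share of the library's FPKM (0.0639% to 0.0896% in vSSC and 0.102% to 0.122% in lbSSC). The summed Timp level was 501 ± 29.3 FPKM in vSSC and 527 ± 31.6 FPKM in lbSSC (SD, n = 4 each), with overlapping libraries. As a share of the library's FPKM the Timp sums did not overlap, at 0.0905% to 0.0936% in vSSC and 0.103% to 0.109% in lbSSC. The ratio of summed Timp to summed Mmp was 1.30, 1.06, 1.46 and 1.01 in vSSC and 1.01, 1.03, 0.927 and 0.863 in lbSSC. The groups overlapped, and vSSC replicates 1 and 3 were the highest. Adamtsl genes summed to 6.58 ± 1.93 FPKM in vSSC and 12.9 ± 3.8 FPKM in lbSSC, and Adamts genes to 39.2 ± 6.2 FPKM in vSSC and 42.2 ± 6.5 FPKM in lbSSC.

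**Figure D2:**
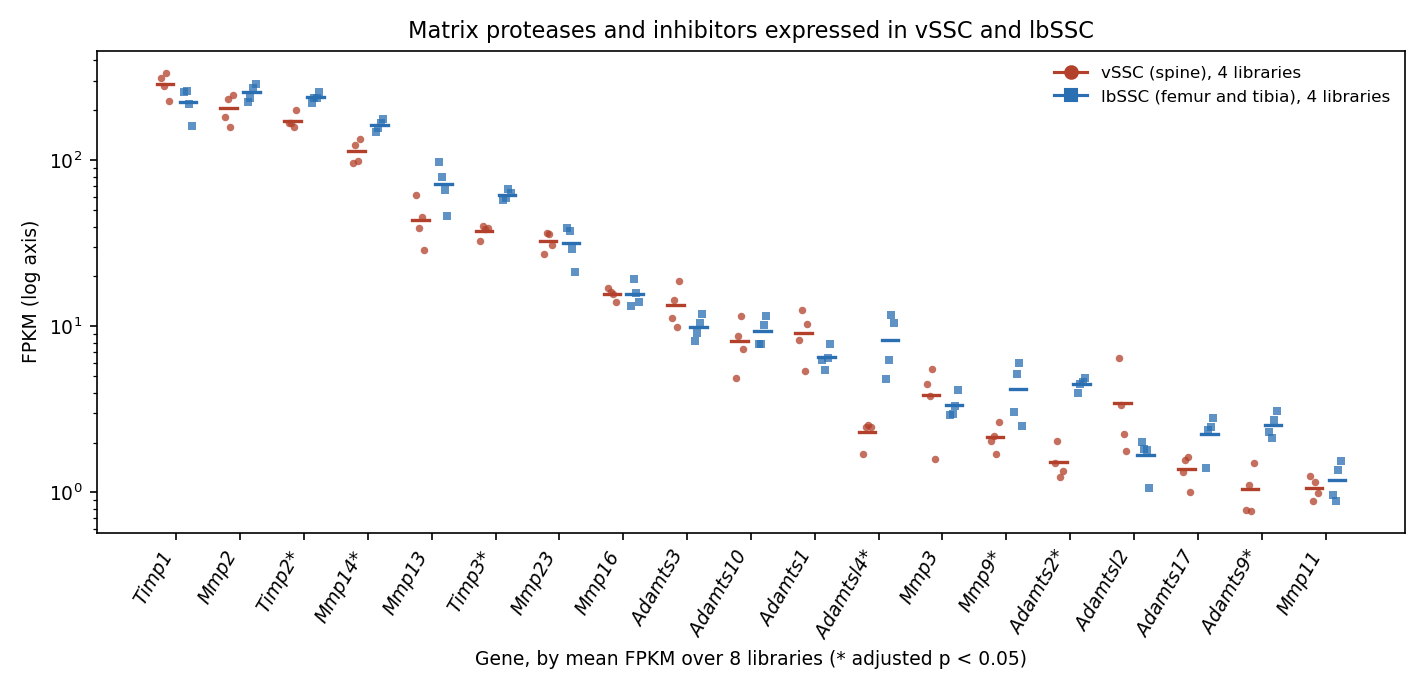
FPKM of the 19 expressed genes in each library on a log axis, vSSC as red circles left of lbSSC as blue squares, with a line at each group mean. Genes run from Timp1, the highest over all libraries, to Mmp11, the lowest, and asterisks mark the 7 called genes.

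The most abundant of the Mmp and Adamts genes were a pair that work together at the cell surface. Mmp14 encodes the membrane-bound protease that activates the Mmp2 precursor, with Timp2 as the bridge between them, and Mmp2 encodes gelatinase A. Mmp2 (chromosome 8, 92827291 to 92853420, build GRCm38) and Mmp14 (chromosome 14, 54431612 to 54441265) together made up 75.4% ± 5.9 of the summed Mmp level in vSSC and 75.9% ± 5.9 in lbSSC (SD, n = 4 each).

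Mmp14 was at 96.5, 124, 99.2 and 134 FPKM in vSSC replicates 1 to 4, against 148, 157, 169 and 178 FPKM in lbSSC replicates 1 to 4. All vSSC libraries were below all lbSSC libraries, with replicates 1 and 3 lowest. Mmp14 fell by 0.53 on the log2 scale (SE 0.13, limma adjusted p = 0.0118), a mean of 113 ± 18.3 FPKM in vSSC and 163 ± 13.2 FPKM in lbSSC (SD, n = 4 each). The call was lost when vSSC replicates 1 and 3 were left out (adjusted p = 0.137) and when the ribosomal protein share was in the model (adjusted p = 0.555).

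Mmp2 was at 183, 234, 159 and 249 FPKM in vSSC replicates 1 to 4, against 226, 239, 272 and 290 FPKM in lbSSC replicates 1 to 4. The groups overlapped: vSSC replicates 2 and 4 lay within the range of the lbSSC libraries, and replicates 1 and 3 lay below it. The difference was -0.33 ± 0.15 and did not pass (95% interval -0.66 to -0.005, limma adjusted p = 0.125). It turned to 0.16 with the ribosomal protein share in the model, and its adjusted p was 0.0498 without vSSC replicate 4. It was -0.083 when vSSC replicates 1 and 3 were left out (adjusted p = 0.761) and -0.22 without replicate 3 alone (adjusted p = 0.315).

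Timp2 (chromosome 11, 118301069 to 118355740), inhibitor and activation partner, was at 167, 168, 159 and 201 FPKM in vSSC replicates 1 to 4, against 222, 239, 239 and 260 FPKM in lbSSC replicates 1 to 4. The groups did not overlap. Timp2 fell by 0.47 on the log2 scale (SE 0.11, limma adjusted p = 0.00937), and the call was lost both when the ribosomal protein share was in the model (adjusted p = 0.283) and when vSSC replicates 1 and 3 were left out (adjusted p = 0.106). The ratio of Timp2 to Mmp14 was close at the sites, 1.55 ± 0.16 in vSSC and 1.47 ± 0.05 in lbSSC (SD, n = 4 each), with overlapping libraries.

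Of the other inhibitors, Timp3 was lower and Timp1 did not pass. Timp3 (chromosome 10, 86300372 to 86349506) encodes the inhibitor that binds to the matrix and also blocks ADAMTS and ADAM proteases. It was at 32.6, 40.3, 38.7 and 39.3 FPKM in vSSC replicates 1 to 4, against 57.5, 59.7, 67.5 and 63.3 FPKM in lbSSC replicates 1 to 4. The groups were far apart, with a gap from 40.3 FPKM, the highest vSSC value, to 57.5 FPKM, the lowest lbSSC value. Timp3 fell by 0.70 on the log2 scale (SE 0.11, limma adjusted p = 0.000834), and its call held in all 21 alternatives run. It lies inside Syn3, a gene on the opposite strand that shares 21.3% of its exon bases, and the library chemistry does not mark strand. Syn3 itself was at 0.234 to 0.320 FPKM in vSSC and at 0.0317 to 1.098 FPKM in lbSSC.

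Timp1 (chromosome X, 20870166 to 20874735), a secreted inhibitor that blocks Mmp14 poorly, was the most abundant member in vSSC and came after Mmp2 and Timp2 in lbSSC by group mean. It was at 313, 279, 338 and 229 FPKM in vSSC replicates 1 to 4, against 259, 261, 218 and 162 FPKM in lbSSC replicates 1 to 4. The groups overlapped, and the highest values were in vSSC replicates 1 and 3. The difference of 0.37 ± 0.17 did not pass (95% interval 0.0037 to 0.74, limma adjusted p = 0.127), and it turned to -0.19 with the ribosomal protein share in the model. It was 0.19 when vSSC replicates 1 and 3 were left out (adjusted p = 0.600), 0.22 without lbSSC replicate 4 (adjusted p = 0.316) and 0.15 with quantile normalization (adjusted p = 0.365).

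The ratio of Timp1 to Timp3 was 9.59, 6.92, 8.74 and 5.81 in vSSC replicates 1 to 4, against 4.50, 4.38, 3.23 and 2.56 in lbSSC replicates 1 to 4. The groups did not overlap. Timp1 made up 57.5% ± 6.3 of the summed Timp level in vSSC and 42.4% ± 6.6 in lbSSC (SD, n = 4 each), from 48.8% upward in vSSC and up to 48.1% in lbSSC. The ratios are unaffected by the scaling of the libraries and are given as a description, with no test. Timp1 over Timp3 sets the only expressed Timp gene with a higher estimate against the one with the lowest, so some separation is built in. Timp4, the remaining inhibitor, was below 0.11 FPKM in 7 of the 8 libraries and at 1.49 FPKM in vSSC replicate 1.

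**Figure D3:**
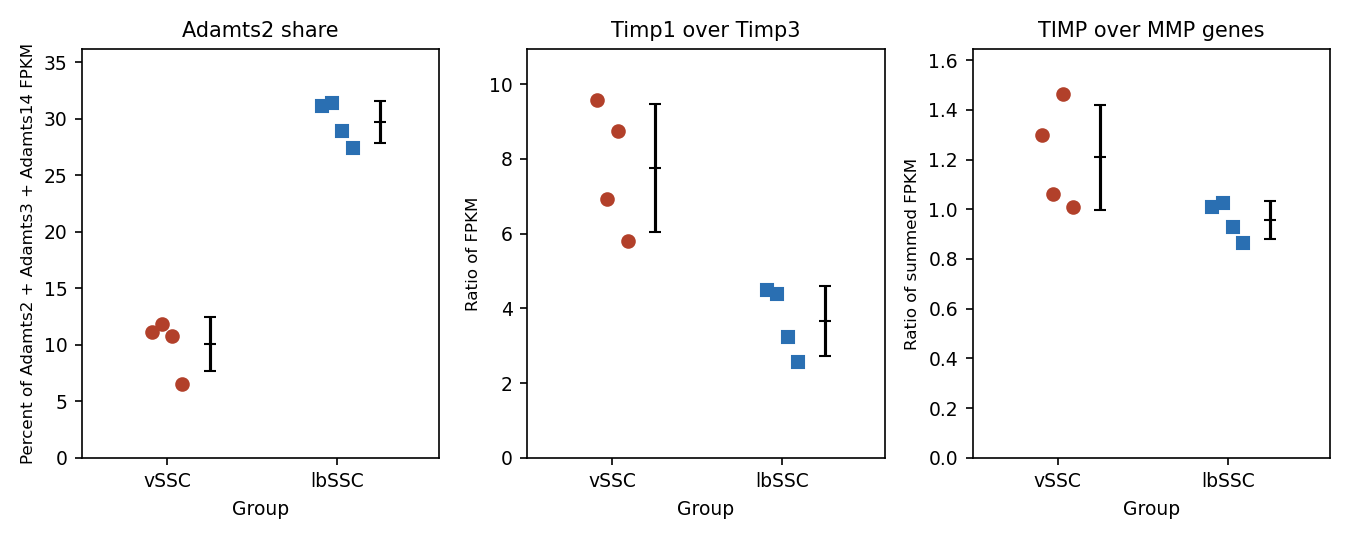
Adamts2 as a percent of Adamts2, Adamts3 and Adamts14 together (left), the ratio of Timp1 to Timp3 FPKM (middle) and the ratio of summed Timp to summed Mmp FPKM (right), each library as a point and mean ± SD beside it, vSSC left of lbSSC. The groups do not overlap in the left and middle panels, while in the right panel the lowest vSSC library, at 1.01, lies below the highest lbSSC library, at 1.03.

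Of the collagenases and stromelysins, the genes of the chromosome 9 cluster were mostly silent. The cluster holds 10 Mmp genes within 427.1 kb (chromosome 9, 7272514 to 7699585): Mmp13, Mmp12, Mmp1b, Mmp3, Mmp1a, Mmp10, Mmp8, Mmp27, Mmp20 and Mmp7. Only Mmp13 and Mmp3 were expressed by the rule above. Mmp1a and Mmp1b were listed at 0 in all 8 libraries, as were Mmp20, the enamel protease, and Mmp7, matrilysin. Mmp12, the macrophage elastase, stayed at or below 0.0133 FPKM and Mmp27 at or below 0.0825 FPKM.

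Mmp13, the collagenase of hypertrophic chondrocytes and osteoblasts, was at 61.6, 39.3, 45.5 and 29.0 FPKM in vSSC replicates 1 to 4, against 97.2, 79.3, 66.5 and 46.3 FPKM in lbSSC replicates 1 to 4. The groups overlapped, since vSSC replicate 1 was above lbSSC replicate 4. Within lbSSC both male libraries were above both female ones. The difference of males minus females with site in the model was 0.54 ± 0.19 and did not pass (limma adjusted p = 0.566, unadjusted p = 0.0156). The site difference was -0.71 ± 0.24 and missed the threshold (95% interval -1.24 to -0.18, limma adjusted p = 0.0533). It passed in 11 of the 21 alternatives, with adjusted p from 0.00114 to 0.125 over all of them, among them 0.00214 with the ribosomal protein share in the model and 0.0302 when vSSC replicates 1 and 3 were left out.

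Mmp3, a stromelysin that can also activate other precursors, averaged 3.86 ± 1.67 FPKM in vSSC and 3.35 ± 0.57 FPKM in lbSSC (SD, n = 4 each). The difference of 0.09 ± 0.25 did not pass (95% interval -0.46 to 0.64, limma adjusted p = 0.818). Mmp10, the other stromelysin of the cluster, was listed at 0, 0, 0 and 0.0883 FPKM in vSSC replicates 1 to 4, against 0.338, 0.685, 0.404 and 0.241 FPKM in lbSSC replicates 1 to 4. Mmp8, the collagenase of neutrophils, was at 0.442 to 1.14 FPKM in vSSC and 0.159 to 1.09 FPKM in lbSSC. Mmp10 and Mmp8 were below the filter and not tested with the other genes.

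**Figure D4:**
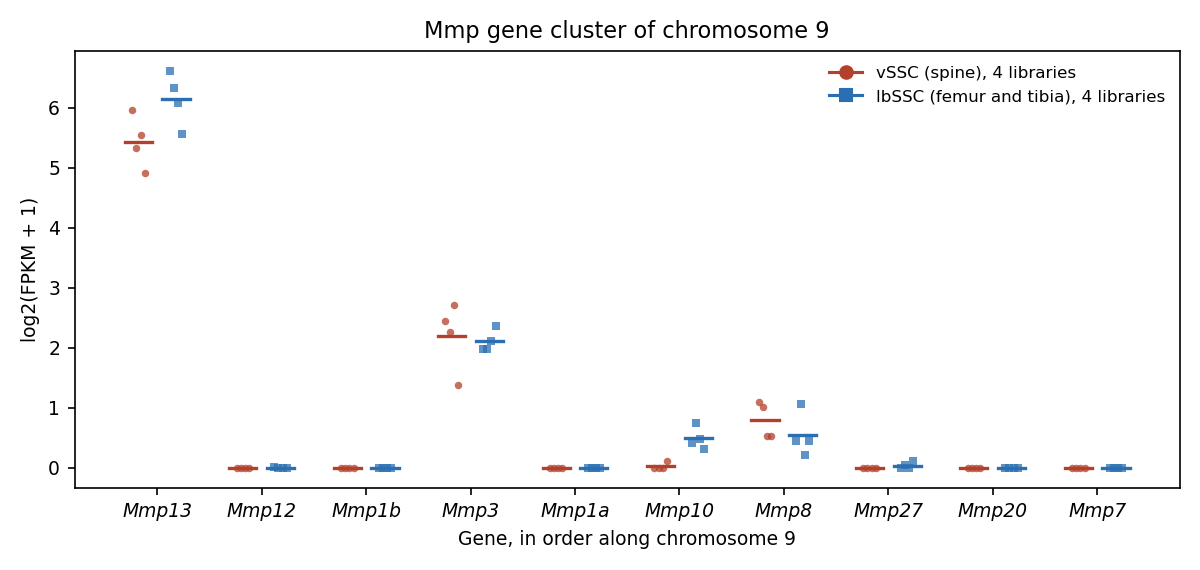
log2(FPKM + 1) of the 10 Mmp genes of the chromosome 9 cluster in their order along the chromosome, each library as a point and each group mean as a line, vSSC (red circles) left of lbSSC (blue squares). Mmp13 at 29.0 to 97.2 FPKM stands far above the rest, Mmp3 follows, and most of the other genes lie at or near 0.

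Mmp9 (chromosome 2, 164940780 to 164955850), gelatinase B, best known from osteoclasts and neutrophils, was at 2.05, 2.20, 1.71 and 2.65 FPKM in vSSC replicates 1 to 4, against 3.07, 5.19, 6.03 and 2.5 FPKM in lbSSC replicates 1 to 4. The groups overlapped, as lbSSC replicate 4 was below vSSC replicate 4. Mmp9 fell by 0.67 on the log2 scale and passed narrowly (SE 0.22, limma adjusted p = 0.0481). The call was lost in 10 of 20 alternatives, with adjusted p from 0.0249 to 0.608. It was lost when any of vSSC replicates 1, 2 and 3 or lbSSC replicates 2 and 3 was left out (adjusted p = 0.0919, 0.0813, 0.115, 0.114 and 0.140 in that order).

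Some of the listed markers of osteoclasts and of neutrophils differed beside Mmp9, and others did not or were near 0. The 10 osteoclast markers summed to 72.6 to 90.5 FPKM in vSSC and 131 to 151 FPKM in lbSSC. Most of each sum was Ctsk, at 50.7 to 72.8 FPKM in vSSC and 98.2 to 120 FPKM in lbSSC. Of the 4 tested, Ctsk, Itgb3 and Acp5 were called lower and none higher. The defining osteoclast genes Calcr, Ocstamp, Dcstamp, Tnfrsf11a, Oscar and Atp6v0d2 stayed at or below 0.228 FPKM in vSSC and 0.256 FPKM in lbSSC. The 10 neutrophil markers summed to 289 to 444 FPKM in vSSC and 27.9 to 126 FPKM in lbSSC. Of the 7 tested, S100a8, S100a9, Camp, Ngp and Ltf were called higher and none lower, while Mpo (-0.01) and Retnlg (0.14) did not pass. Cxcr2 stayed at or below 0.161 FPKM in vSSC and 0.284 FPKM in lbSSC. Ly6g reached 1.29 FPKM in vSSC and 0.330 FPKM in lbSSC, and Elane 4.27 FPKM in vSSC and 3.56 FPKM in lbSSC. Cxcr2, Ly6g and Elane were not tested. The part of these cells in the Mmp9 level was not tested.

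The remaining expressed Mmp genes showed no call. Mmp23, a short form that lacks the hemopexin domain, averaged 32.7 ± 4.4 FPKM in vSSC and 31.9 ± 8.2 FPKM in lbSSC (SD, n = 4 each), a difference of 0.06 ± 0.18 (95% interval -0.33 to 0.46). Mmp16, a membrane-type protease, averaged 15.7 ± 1.3 FPKM in vSSC and 15.6 ± 2.7 FPKM in lbSSC, a difference of 0.02 ± 0.13 (95% interval -0.27 to 0.31). Mmp11, the third stromelysin, averaged 1.07 ± 0.16 FPKM in vSSC and 1.19 ± 0.32 FPKM in lbSSC, a difference of -0.07 ± 0.16 (95% interval -0.43 to 0.28). Of the exon bases of Mmp11, 5.58% are shared with Chchd10 on the opposite strand, which was at 1.14 to 5.04 FPKM in vSSC and 1.09 to 2.74 FPKM in lbSSC.

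Among the Adamts genes, the procollagen N-proteinases Adamts2, Adamts3 and Adamts14 cut the amino-terminal propeptide from fibrillar procollagens. Adamts2 (chromosome 11, 50602084 to 50807573), the enzyme whose loss causes fragile skin, was at 1.51, 2.04, 1.24 and 1.35 FPKM in vSSC replicates 1 to 4, against 3.96, 4.51, 4.64 and 4.91 FPKM in lbSSC replicates 1 to 4. The groups were far apart, and the lbSSC libraries lay close together. Adamts2 fell by 1.13 on the log2 scale (SE 0.15, limma adjusted p = 0.000342), and its call held in all 20 alternatives that could test it. In FPKM the vSSC mean was 0.341 of the lbSSC mean.

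Adamts3 (chromosome 5, 89677087 to 89883334), which is expressed in cartilage, had the opposite estimate. It averaged 13.6 ± 4.0 FPKM in vSSC and 9.92 ± 1.63 FPKM in lbSSC (SD, n = 4 each), and the difference of 0.39 ± 0.19 did not pass (95% interval -0.02 to 0.80, limma adjusted p = 0.151). The difference was 1.03 with the ribosomal protein share in the model (adjusted p = 0.00626) and 0.69 when vSSC replicates 1 and 3 were left out (adjusted p = 0.0343). It was 0.23 without vSSC replicate 4 (adjusted p = 0.325) and 0.25 with the libraries rescaled to one sum (adjusted p = 0.427). Adamts14 was at 0.388 to 0.903 FPKM in vSSC and 0.608 to 1.13 FPKM in lbSSC and was not tested.

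The summed level of the 3 enzymes was 15.8 ± 4.1 FPKM in vSSC and 15.3 ± 2.2 FPKM in lbSSC, but its makeup differed. Adamts2 made up 11.1%, 11.9%, 10.8% and 6.51% of the sum in vSSC replicates 1 to 4, against 31.1%, 31.4%, 28.9% and 27.4% in lbSSC replicates 1 to 4. Adamts3 made up 82.3% to 90.4% in vSSC and 63.4% to 66.3% in lbSSC. The groups overlapped in neither share, which are descriptions with no test.

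Of the fibrillar collagens that these enzymes act on, Col1a1 was lower and Col2a1 did not pass. Col1a1 was at 723 ± 71.5 FPKM in vSSC and 4093 ± 836 FPKM in lbSSC and fell by 2.48 on the log2 scale (SE 0.15, limma adjusted p = 1.0e-06). Col2a1, the fibrillar collagen of cartilage, was at 7443 to 15067 FPKM in vSSC and 10803 to 20002 FPKM in lbSSC, a difference of -0.41 that did not pass (limma adjusted p = 0.301). The 9 osteoblast markers, Col1a1 among them, summed to 1286 to 1358 FPKM in vSSC and 4086 to 6095 FPKM in lbSSC. Col1a1 alone, at 623 to 788 FPKM in vSSC and 3636 to 5344 FPKM in lbSSC, made up most of the gap between these sums. Of the 9 tested, 1 was called higher (Sp7) and 4 lower (Col1a1, Bglap, Dmp1 and Ifitm5). The 8 fibroblast and perichondrium markers summed to 1011 to 1109 FPKM in vSSC and 1636 to 1800 FPKM in lbSSC, with 0 called higher and 5 lower (Col3a1, Dcn, Pdgfra, Pdgfrb and Prrx1) of 7 tested, while Thy1 stayed below 1 FPKM. The part of these markers in the Adamts2 level was not tested.

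Of the proteases that cut aggrecan and versican (Adamts1, Adamts4, Adamts5, Adamts9 and Adamts15), Adamts9 was lower in vSSC and Adamts1 did not pass. Adamts9 (chromosome 6, 92772699 to 92943492) was at 0.784, 1.11, 0.774 and 1.51 FPKM in vSSC replicates 1 to 4, against 2.31, 2.12, 2.72 and 3.11 FPKM in lbSSC replicates 1 to 4. The groups did not overlap, and vSSC replicates 1 and 3 were below 1 FPKM. Adamts9 fell by 0.81 on the log2 scale (SE 0.17, limma adjusted p = 0.00651), and the call was lost both when the ribosomal protein share was in the model (adjusted p = 0.426) and when vSSC replicates 1 and 3 were left out (adjusted p = 0.0560). A730049H05Rik on the opposite strand shares 9.18% of its exon bases and was at or below 0.0265 FPKM.

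Adamts1 averaged 9.18 ± 3.06 FPKM in vSSC and 6.52 ± 1.00 FPKM in lbSSC (SD, n = 4 each). The difference of 0.39 ± 0.21 did not pass (95% interval -0.07 to 0.85, limma adjusted p = 0.193), and the adjusted p was 0.0376 without vSSC replicate 3 and 0.0194 without vSSC replicates 1 and 3. The difference was 0.23 without vSSC replicate 2 (adjusted p = 0.423). Its neighbour on chromosome 16, Adamts5, a main aggrecanase of mouse cartilage, was at 0.742 to 1.08 FPKM in vSSC and 0.451 to 0.787 FPKM in lbSSC. Adamts4, the other classic aggrecanase, was at 0.267 to 0.789 FPKM in vSSC and 0.897 to 1.36 FPKM in lbSSC, and Adamts15 was at 0.117 to 0.449 FPKM in vSSC and 0.643 to 1.12 FPKM in lbSSC. These 3 genes reached 1 FPKM in too few libraries to be tested with the rest.

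Summed over the 5 proteoglycan-cutting genes, the level was 11.8 ± 3.3 FPKM in vSSC and 11.7 ± 1.6 FPKM in lbSSC. Of their substrates, Acan was at 262 to 673 FPKM in vSSC and 393 to 605 FPKM in lbSSC, a difference of -0.20 that did not pass (limma adjusted p = 0.627). Vcan was at 1.29 ± 0.22 FPKM in vSSC and 3.08 ± 0.48 FPKM in lbSSC, with no overlap of the libraries, and fell by 0.83 (SE 0.15, limma adjusted p = 0.00298).

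Adamts10 and Adamts17 act on fibrillin microfibrils. Adamts10 averaged 8.15 ± 2.83 FPKM in vSSC and 9.36 ± 1.85 FPKM in lbSSC (SD, n = 4 each), a difference of -0.22 ± 0.22 that did not pass (95% interval -0.69 to 0.26). Adamts17 averaged 1.38 ± 0.29 FPKM in vSSC and 2.26 ± 0.60 FPKM in lbSSC, a difference of -0.44 ± 0.18 that did not pass (95% interval -0.83 to -0.05, limma adjusted p = 0.0961), and its adjusted p was 0.0363 without lbSSC replicate 1.

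The 2 expressed ADAMTS-like genes, whose products bind fibrillin, had estimates of opposite sign. Adamtsl4 (chromosome 3, 95676201 to 95687917) was at 1.70, 2.48, 2.53 and 2.48 FPKM in vSSC replicates 1 to 4, against 4.86, 6.28, 11.7 and 10.5 FPKM in lbSSC replicates 1 to 4. The groups did not overlap, and within lbSSC the female libraries were higher than the male ones. Adamtsl4 fell by 1.44 on the log2 scale, the largest difference among the 19 (SE 0.23, limma adjusted p = 0.00141), and the call was lost with the ribosomal protein share in the model (adjusted p = 0.187).

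Adamtsl2 averaged 3.45 ± 2.08 FPKM in vSSC and 1.68 ± 0.43 FPKM in lbSSC (SD, n = 4 each), with vSSC replicate 1 highest at 6.42 FPKM. The difference of 0.64 ± 0.27 did not pass (95% interval 0.04 to 1.24, limma adjusted p = 0.107), and its adjusted p was 0.0388 without vSSC replicate 4. The difference was 0.087 with the ribosomal protein share in the model (adjusted p = 0.948), 0.36 without vSSC replicate 1 (adjusted p = 0.240) and 0.39 when vSSC replicates 1 and 3 were left out (adjusted p = 0.328). Of the listed genes of elastic fibres and fibrillin microfibrils, 1 was called higher, 1 was called lower and the 2 fibrillin genes did not pass. Eln, which encodes elastin, was at 216 ± 108 FPKM in vSSC and 33.7 ± 5.2 FPKM in lbSSC and rose by 2.54 on the log2 scale (SE 0.25, limma adjusted p = 5.3e-05). Fbln1, which encodes a fibulin, was at 7.35 ± 1.36 FPKM in vSSC and 15.1 ± 2.4 FPKM in lbSSC and fell by 0.95 (SE 0.15, limma adjusted p = 0.00125). Fbn1 differed by -0.69 ± 0.24 (limma adjusted p = 0.0546) and Fbn2 by -0.75 ± 0.25 (limma adjusted p = 0.0521).

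Of the 51 genes, 32 were not expressed by the rule. Of these, 5 were listed at 0 in every library (Mmp1a, Mmp1b, Mmp7, Mmp20 and Mmp21), 15 stayed below 1 FPKM, and 12 reached 1 FPKM in at least 1 library (Adamts4, Adamts5, Adamts12, Adamts14, Adamts15, Adamtsl1, Adamtsl3, Adamtsl5, Mmp8, Mmp15, Mmp28 and Timp4). Every expressed gene reached 1 FPKM in libraries of both groups, and 17 of the 19 did so in all 8 libraries, Mmp11 and Adamts9 being the exceptions. Mmp11 reached it in 2 vSSC and 2 lbSSC libraries. Adamts9 reached it in 2 vSSC and 4 lbSSC libraries, so that lbSSC alone was enough for it to meet the rule. Adamtsl3 was the highest of the unexpressed genes, at 0.129, 0.384, 0.170 and 0.550 FPKM in vSSC replicates 1 to 4, against 2.38, 0.789, 2.08 and 2.02 FPKM in lbSSC replicates 1 to 4.

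When every gene with a value above 0 was fitted without the filter, 7 of the unexpressed genes passed as lower in vSSC and 0 as higher. Of the 32 unexpressed genes, all but the 5 at 0 everywhere were in this fit. Over all 16378 fitted genes, expressed ones included, 6.51% passed as lower and 13.5% in either direction. The share among unexpressed genes alone was not computed. The 7 were Adamtsl3 (-1.08 ± 0.21, limma adjusted p = 0.0151), Adamts16, Adamts15, Mmp10, Mmp15, Adamts4 and Adamts12, with values of -0.44 or lower. Adamts16 had 0 FPKM in every vSSC library, against 0.343, 0.451, 0.496 and 0.973 FPKM in lbSSC replicates 1 to 4. All 7 averaged below 2 FPKM in both groups, and their counting error is unknown. Mmp9 did not pass in that fit (adjusted p = 0.104).

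Sex was compared with site as a covariate. No member passed for males minus females or for the interaction of site and sex, where 0.0466% and 0.00% of all tested genes passed (limma). At an unadjusted p under 0.05 there were 4 members and 892 of all tested genes for sex, and 2 members and 405 of all tested genes for the interaction. The 4 were Adamtsl4, Mmp13, Adamtsl2 and Adamts10, and the 2 were Mmp23 and Adamtsl4.

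Other genes of matrix turnover were followed through 9 lists that hold 122 different gene symbols, of which 121 were found and 91 were tested. Of these 91, 5 were called higher and 35 lower in vSSC, with a median difference of -0.27, beside 14.3% and 9.17% of all tested genes. The 35 became 17 with the ribosomal protein share in the model. The lists were chosen with earlier results of these data known, so the counts describe these genes and do not test matrix turnover as a group. Pcolce stands in 2 of the lists and is counted in both below, but once in these totals.

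**Figure D5:**
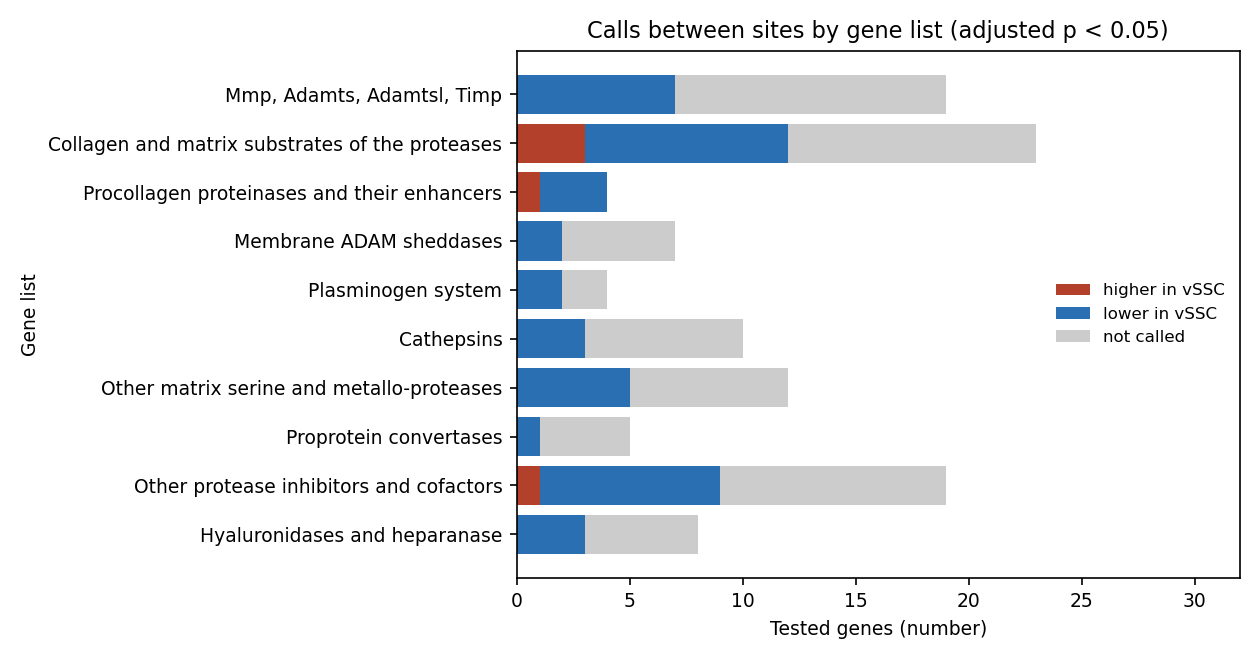
Number of tested genes (x axis) in the protease and inhibitor family and in 9 other lists of matrix turnover genes, split into those called higher in vSSC (red), called lower in vSSC (blue) and not called (grey). Lower calls outnumber higher calls in every list, and the lists were chosen with earlier results of these data known.

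Of the collagens and other matrix substrates, 3 were called higher and 9 lower of 23 tested. The higher ones were Eln, Matn3 (1506 ± 88.6 FPKM in vSSC and 542 ± 85.9 FPKM in lbSSC) and Hapln1, which links aggrecan to hyaluronan (1887 ± 176 FPKM in vSSC and 1004 ± 108 FPKM in lbSSC). The lower ones were led by Col1a1, Col1a2 (1771 ± 156 FPKM in vSSC and 5939 ± 831 FPKM in lbSSC) and Col10a1 (137 ± 24.8 FPKM in vSSC and 325 ± 53.4 FPKM in lbSSC). All 4 tested procollagen proteinases and enhancers were called, 1 higher and 3 lower. Bmp1, the procollagen C-proteinase, averaged 29.7 ± 2.4 FPKM in vSSC and 45.7 ± 3.2 FPKM in lbSSC, and its relative Tll1 averaged 1.5 ± 0.25 FPKM in vSSC and 4.71 ± 0.73 FPKM in lbSSC. The enhancer Pcolce averaged 222 ± 16.4 FPKM in vSSC and 445 ± 25.1 FPKM in lbSSC, whereas Pcolce2 was the higher one, at 149 ± 14.1 FPKM in vSSC and 92.9 ± 22.7 FPKM in lbSSC.

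Among the inhibitors and cofactors outside the Timp genes, 1 was called higher and 8 lower of 19 tested. The lower ones were led by Serpinf1, which encodes a secreted serpin (132 ± 9.3 FPKM in vSSC and 351 ± 49.5 FPKM in lbSSC), Pcolce and the broad protease trap A2m (0.563 ± 0.240 FPKM in vSSC and 4.54 ± 1.32 FPKM in lbSSC). Tfpi, an inhibitor of coagulation, was the higher one, at 1.82 ± 0.27 FPKM in vSSC and 0.519 ± 0.291 FPKM in lbSSC. In the plasminogen system 0 were called higher and 2 lower of 4 tested. These were the inhibitor Serpine2 (104 ± 1.3 FPKM in vSSC and 174 ± 15.5 FPKM in lbSSC) and the activator Plat (2.1 ± 0.63 FPKM in vSSC and 5.23 ± 0.45 FPKM in lbSSC).

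Of the cathepsins, 0 were called higher and 3 lower of 10 tested. These were the collagen-degrading Ctsk (60.02 ± 9.4 FPKM in vSSC and 114 ± 10.3 FPKM in lbSSC), Ctsd (229 ± 14.6 FPKM in vSSC and 350 ± 12.98 FPKM in lbSSC) and Ctsf (44.1 ± 5.0 FPKM in vSSC and 58.4 ± 5.3 FPKM in lbSSC). Of the membrane ADAM sheddases, 2 were called lower of 7 tested and none higher: Adam12 (1.15 ± 0.62 FPKM in vSSC and 3.37 ± 0.77 FPKM in lbSSC) and Adam10 (5.41 ± 0.71 FPKM in vSSC and 8.397 ± 1.54 FPKM in lbSSC). Of the other serine and metalloproteases, 5 were called lower of 12 tested and none higher, led by Pappa2, which cuts IGF binding proteins (1.105 ± 0.398 FPKM in vSSC and 8.52 ± 1.23 FPKM in lbSSC), the carboxypeptidase gene Cpz (41.5 ± 13.6 FPKM in vSSC and 98.2 ± 11.3 FPKM in lbSSC), and Mme, which encodes neprilysin (4.63 ± 0.68 FPKM in vSSC and 8.18 ± 1.15 FPKM in lbSSC). Pcsk5 was the only one of 5 tested proprotein convertases that was called, as lower, at 1.24 ± 0.45 FPKM in vSSC and 4.65 ± 0.79 FPKM in lbSSC. Of the hyaluronidases, heparanase and sulfatases, 3 were called lower of 8 tested and none higher. They were the sulfatase genes Sulf1 (2.16 ± 0.82 FPKM in vSSC and 7.92 ± 1.68 FPKM in lbSSC) and Sulf2 (26.6 ± 8.2 FPKM in vSSC and 43.9 ± 11.4 FPKM in lbSSC), and the hyaluronidase gene Tmem2 (3.64 ± 0.26 FPKM in vSSC and 5.47 ± 0.95 FPKM in lbSSC).

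The remaining marker lists were read for other cells that could add to these levels. Of the 10 chondrocyte markers, all tested, 2 were called higher (Matn3 and Hapln1) and 1 lower (Matn1), with sums of 15178 to 24053 FPKM in vSSC and 16831 to 26965 FPKM in lbSSC. Of the 9 hypertrophic chondrocyte markers, all tested, 4 were called higher (Ihh, Pth1r, Panx3 and Mef2c) and 1 lower (Col10a1), with sums of 1704 to 2021 FPKM in vSSC and 1412 to 2510 FPKM in lbSSC. Macrophage markers gave 2 higher calls of 2 tested, Lyz2 and Cd14, with sums of 15.1 to 31.3 FPKM in vSSC and 8.47 to 12.8 FPKM in lbSSC, while Csf1r, Adgre1, C1qa, C1qb and C1qc stayed below 1 FPKM. Erythroid markers gave 0 higher and 2 lower calls of 7 tested, Klf1 and Alas2, with sums of 3799 to 5349 FPKM in vSSC and 4244 to 8753 FPKM in lbSSC. Endothelial markers gave 1 higher call of 2 tested, Egfl7, with Pecam1, Cdh5, Kdr and Tek below 1 FPKM and sums of 13.6 to 17.6 FPKM in vSSC and 10.8 to 14.9 FPKM in lbSSC. Lymphoid markers gave 2 higher calls of 2 tested, Cd79a and Cd79b, with Cd3e and Cd3g at 0 and sums of 8.99 to 13.4 FPKM in vSSC and 0.700 to 5.38 FPKM in lbSSC. The part of these cells in the levels of the proteases was not tested.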

How the data were processed

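RNA was sequenced from 8 libraries of sorted skeletal cells, 4 vSSC and 4 lbSSC, with the group, sex and replicate number that the labels give. Per the labels' protocols, RNA was column-purified and made into libraries by SMART-Seq v4 followed by Nextera XT, a chemistry without strand information. Per the submitters' processing notes, the tools were Cufflinks 2.1.1, STAR 2.5.2 and bcl2fastq 2.19 on build GRCm38, and other settings are not given in the sources read. The authors deposited one FPKM value for each protein-coding gene and library, and since FPKM divides by the library total, a gain in abundant genes lowers all others. The table had 22053 rows with 22007 gene identifiers. Starts in the table were raised by 1 to match the annotation (GENCODE M21). The steps that single fragments leave in low values were searched for, and at the best step only 26.6% to 33.5% of values lay within 0.1 of a whole number, so depth is unknown, no counts were recovered, and the replicates alone give the precision.

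The tests used limma 3.58.1 in R 4.3.3 on log2(FPKM + 1), for the 10729 rows that reached 1 FPKM in 4 or more of the 8 libraries (empirical Bayes with a variance trend): vSSC minus lbSSC with no covariate, males minus females with site in the model, and the product of site and sex. A call needed an adjusted p (Benjamini-Hochberg over all tested rows) under 0.05. The fit was tested on simulated data with known differences. Alternatives were other pseudocounts, filters and scalings, no trend, library weights, sex, the replicate number or the ribosomal protein share in the model, and libraries left out. Named with values in every library were the called members and the 6 most abundant, other members by mean or range, and from each other list up to 3 called genes with the smallest p in each direction. Other members and markers that a sentence singles out, such as Adamtsl3, Adamts16, Col2a1, Vcan, Fbln1, Fbn1 and Fbn2, were chosen after their values were seen. The members and lists were chosen with earlier results of these data known. Promoters were taken from RefSeq (GRCm38.p6), where 36 of the 51 symbols had a window.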

Additional observations from a re-analysis of the deposited data

Results flagged for a closer look

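A library far from the others of its group, by Dixon's criterion for 4 libraries, was found in 3 of the 62 groups of members that reached 1 FPKM, where chance gives about 5% of groups. Adamtsl4 in vSSC replicate 1 was at 1.70 FPKM, with the other 3 vSSC libraries between 2.48 and 2.53 FPKM. Timp4 in vSSC replicate 1 was at 1.49 FPKM, with the other 3 vSSC libraries between 0.0234 and 0.107 FPKM. Timp4 in lbSSC replicate 4 was at 0.0581 FPKM, with the other 3 lbSSC libraries between 0 and 0.00947 FPKM.

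The site difference of Mmp23 had opposite signs in the sexes, and neither the difference nor its interaction with sex passed. It was -0.27 in males, where both vSSC libraries (27.2 and 36.6 FPKM) lay below both lbSSC libraries (39.0 and 37.8 FPKM). In females it was 0.40, where both vSSC libraries (35.9 and 31.0 FPKM) lay above both lbSSC libraries (29.3 and 21.4 FPKM). The interaction of -0.67 ± 0.28 did not pass (limma adjusted p = 0.981, unadjusted p = 0.0387, 2 libraries for each sex and site).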

How the results depend on the processing

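The 7 lower calls became 13 with no filter and 4 with a filter at 5 FPKM (Mmp13, Mmp14, Timp2 and Timp3). At that filter Adamts2, Adamts9, Adamtsl4 and Mmp9 were no longer tested, and no called gene that was still tested lost its call. The 7 became 3 with the ribosomal protein share in the model (Adamts2, Timp3 and Mmp13) and 4 without both vSSC replicates 1 and 3 (Adamts2, Timp3, Adamtsl4 and Mmp13). With single libraries left out they ranged from 6 to 8. The 0 higher calls became 2 with the replicate block (Adamtsl2, adjusted p = 0.0334, and Timp1, adjusted p = 0.0321), 1 with the ribosomal protein share (Adamts3) and 2 without both replicates (Adamts1 and Adamts3), and ranged from 0 to 1 with single libraries left out. Over all genes the 2518 calls became 613 with the ribosomal protein share and 1095 without both replicates, and ranged from 1534 to 2991 with single libraries left out. The 35 lower calls of the other lists became 17 with the ribosomal protein share. By the expression rule 29 members passed at 0.5 FPKM and 11 at 5 FPKM. Sex and interaction gave 0 calls among the members in every alternative run. Whether same-numbered libraries form pairs could not be settled from 4 numbers. The correlation of their deviations was over 0.1 for 2 of 4 numbers (from -0.088 to 0.435), and 4 of 8 libraries correlated best with their own number. With the replicate block 8 members were called lower, and over all genes the 2518 calls became 3194.

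Estimates that changed sign were all of genes that did not pass. Mmp16 was -0.064 with median-of-ratios scaling, -0.087 with quantile normalization, -0.12 with one sum, -0.022 with library weights, -0.11 with the ribosomal protein share and -0.042 without both replicates. Mmp23 was -0.019, -0.10 and -0.081 with the same 3 scalings and -0.29 with the ribosomal protein share. Mmp3 was -0.031 with one sum, -0.35 with the ribosomal protein share and -0.29 without both replicates. Mmp11 was 0.031 with quantile normalization. With the ribosomal protein share Mmp11 was 0.044, Mmp2 0.16, Adamts10 0.027 and Timp1 -0.19. With single libraries left out, the estimates ranged over -0.054 to 0.12 for Mmp16, -0.11 to 0.17 for Mmp23, -0.080 to 0.37 for Mmp3 and -0.14 to 0.0051 for Mmp11. The causes were not tested. The ribosomal protein share differs between the groups, so its part and that of site cannot be told apart.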
